A study of Homo sapiens with 6 samples.

Results

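The human mitochondrial genome gives 37 RNAs, and all 37 had a row, by their MT- names, among the 63241 gene rows of the expression table. These are 13 mRNAs, 2 rRNAs and 22 tRNAs. They were measured in THP-1-derived macrophages by poly(A) RNA sequencing 24 h after transfection with an siRNA against DUSP6 (siDUSP6, labelled as DUSP6 knockdown, 3 libraries) or with a negative control siRNA (siNC, labelled WT, 3 libraries). THP-1, an established line from a human monocytic leukaemia, takes on macrophage features when differentiated. Both groups were transfected, so neither is an untreated control. DUSP6 encodes a phosphatase that acts on ERK1 and ERK2. The title places the experiment in a study of macrophage polarization through DUSP6 and ERK in adenomyosis. For siDUSP6 replicates 2 and 3 the treatment entry reads DUSP7 and DUSP8, while their titles, library names and genotypes read DUSP6. Nothing in the labels ties the libraries to separate cultures, and the p-values reflect only how far these libraries differ, which may be technical.

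Mitochondrial DNA is a small circle transcribed from both strands into long precursor RNAs. The precursors are cut mostly at the tRNAs that lie between the other genes, which frees the rRNAs of the mitochondrial ribosome and the mRNAs. The mRNAs encode core subunits of respiratory complexes I, III and IV and of the ATP synthase, complex V, and most of them receive a short poly(A) tail that for some completes the stop codon. Macrophages change their use of oxidative phosphorylation when they are activated, and the nuclear genome supplies the remaining subunits and all proteins that make, process and degrade mitochondrial RNA.

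DUSP6 stood at 227, 218 and 222 TPM in siDUSP6 libraries 1, 2 and 3, against 359, 368 and 378 TPM in the siNC libraries, a log2 fold change of -0.73 (limma adjusted p = 8.667e-05), so most of its mRNA remained. Values are TPM, reads scaled by transcript length and by the library's total, so they are shares of the transcript pool and keep no sequencing depth. Between 14487 and 14680 genes per library reached 1 TPM. Of 10 macrophage markers 9 had a mean of at least 1 TPM, with summed levels of 1166 to 1174 TPM in siDUSP6 and 1114 to 1149 TPM in siNC libraries. Markers of other cell types summed to at most 0.1 TPM for T cells, 0.44 TPM for epithelial cells, 1.34 TPM for endothelial cells, 3.94 TPM for B cells, 5.65 TPM for neutrophils and 21.8 TPM for fibroblasts. CD2, CD3D, CD3G, MS4A1 and EPCAM were at 0 in all libraries. The part of these markers in the results was not tested.

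Several members share bases with a neighbour, which bears on how reads can be assigned. MT-ATP8 and MT-ATP6 overlap by 46 bases, MT-ND4L and MT-ND4 by 7 and MT-ATP6 and MT-CO3 by 1, all on the same strand. MT-ATP8 and MT-ND4L are shown whole because they are the shortest pair of mRNAs and the most abundant by TPM. Sequences and coordinates are those of GENCODE release 29 on GRCh38, and capitals mark the bases that MT-ATP8 shares with MT-ATP6 and MT-ND4L with MT-ND4.
MT-ATP8, chrM:8366-8572, plus strand: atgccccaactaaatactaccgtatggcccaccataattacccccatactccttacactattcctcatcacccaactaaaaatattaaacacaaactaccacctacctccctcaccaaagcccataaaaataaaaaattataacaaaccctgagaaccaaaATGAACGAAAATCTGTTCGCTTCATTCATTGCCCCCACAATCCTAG
MT-ND4L, chrM:10470-10766, plus strand: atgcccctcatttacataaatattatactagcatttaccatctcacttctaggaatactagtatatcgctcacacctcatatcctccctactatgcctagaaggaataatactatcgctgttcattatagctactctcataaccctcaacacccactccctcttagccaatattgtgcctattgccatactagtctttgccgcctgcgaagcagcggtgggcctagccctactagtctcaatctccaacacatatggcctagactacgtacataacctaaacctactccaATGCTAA

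The annotated 3′ ends of the mRNA genes are shown because the library method selects poly(A) tails and the tail completes some stop codons. An annotated end need not be the end of the RNA, and those of MT-ATP8 and MT-ND4L lie within MT-ATP6 and MT-ND4. Of the 13 mRNAs 6 end in a partial stop codon in the DNA, 5 of them in T and MT-ND1 in TA, and 7 end in a whole codon read as a stop in human mitochondria or used as their end there. The last 24 bases of each annotated gene follow, 5′ to 3′, with the partial or whole stop codon in capitals.
MT-ND1, chrM:4239-4262, plus strand: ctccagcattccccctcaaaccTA
MT-ND2, chrM:5488-5511, plus strand: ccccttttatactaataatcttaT
MT-CO3, chrM:9967-9990, plus strand: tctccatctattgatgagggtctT
MT-ND3, chrM:10381-10404, plus strand: aaaaaggattagactgaaccgaaT
MT-ND4, chrM:12114-12137, plus strand: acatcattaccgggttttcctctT
MT-CYB, chrM:15864-15887, plus strand: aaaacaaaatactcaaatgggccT
MT-CO1, chrM:7422-7445, plus strand: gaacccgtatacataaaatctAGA
MT-CO2, chrM:8246-8269, plus strand: atagggcccgtatttaccctaTAG
MT-ATP8, chrM:8549-8572, plus strand: cattcattgcccccacaatccTAG
MT-ATP6, chrM:9184-9207, plus strand: ctctacctgcacgacaacacaTAA
MT-ND4L, chrM:10743-10766, plus strand: aacctaaacctactccaatgcTAA
MT-ND5, chrM:14125-14148, plus strand: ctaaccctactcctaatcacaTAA
MT-ND6, chrM:14149-14172, minus strand: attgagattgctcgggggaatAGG

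Fold changes of both kinds overlapped in range. The 6 mRNAs with a partial stop codon had a median log2 fold change of -0.0753 and a range from -0.119 to 0.0407. The 7 with a whole codon had a median of -0.061 and a range from -0.107 to -0.0417.

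The mitochondrial RNAs were among the most abundant in these cells. MT-ATP8, MT-ND4L and MT-ND3 ranked 1, 2 and 4 by mean TPM of all rows in the table, and 9 of the 20 highest rows were mitochondrial. In total the mitochondrial rows held 10.5%, 10.5% and 10.7% of all TPM in siDUSP6 libraries, against 11.0%, 11.0% and 11.1% in siNC libraries. The means were 10.6% ± 0.128 in siDUSP6 and 11.0% ± 0.0554 in siNC libraries (SD, n = 3 each), a change of -3.84% in the sum. The groups did not overlap, and the siDUSP6 library nearest to siNC was replicate 3. In bulk libraries less mitochondrial RNA per cell, fewer cells rich in it and more RNA of other genes cannot be told apart. The log2 ratio of the sums was -0.0564 as deposited and -0.0311 after median-of-ratios scaling.

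The 22 tRNA rows, 14 on the plus and 8 on the minus strand, were listed at 0 in all 6 libraries. Their annotated lengths run from 59 to 75 bases. Across the whole table no annotated row shorter than 131 bases was above 0 in any library, and 5988 rows were that short. The zeros of the tRNA rows therefore give no level and no comparison, and 15 members had values. All 15 passed the filter, a mean of 1 TPM or more.

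**Figure D1:**
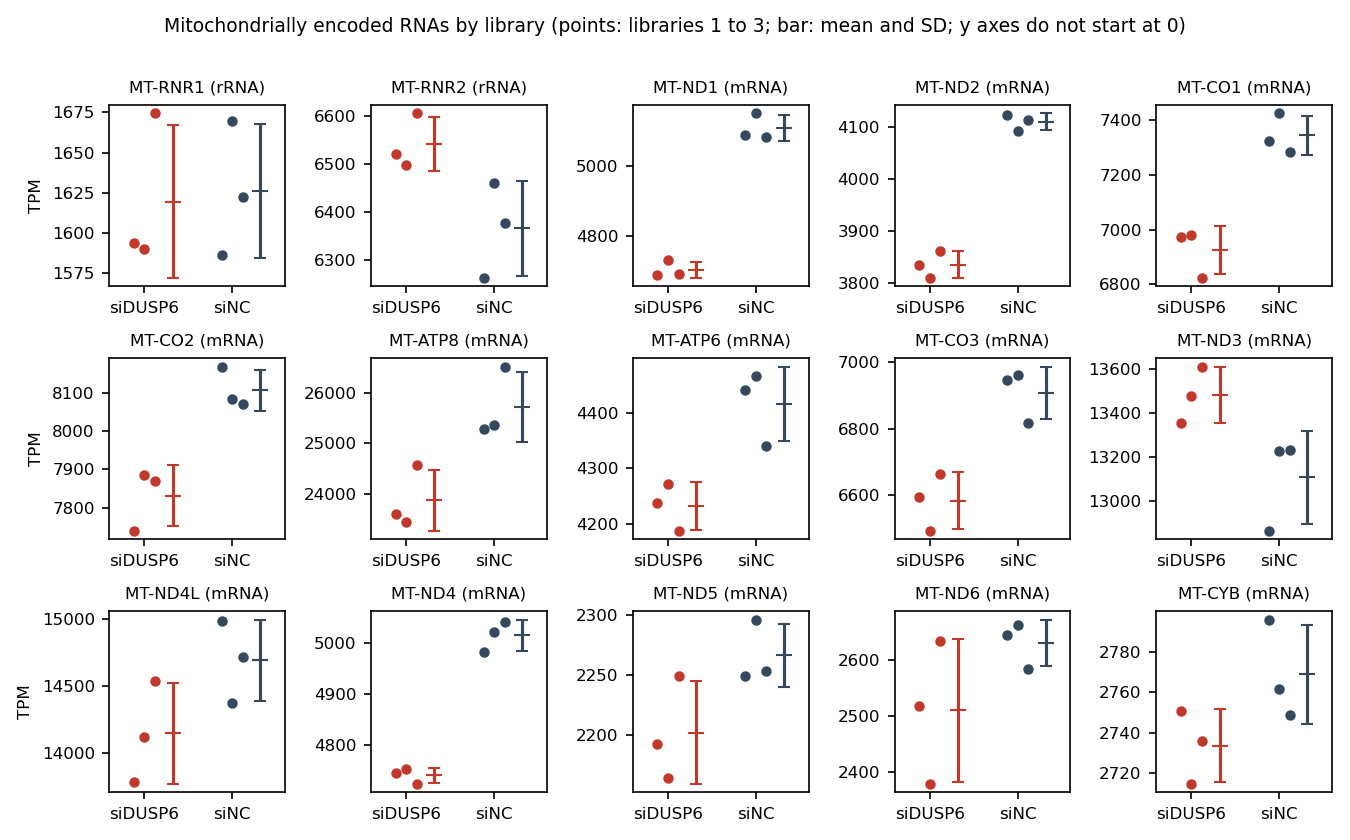
TPM of the 15 mitochondrial RNAs with values, in genome order, in each siDUSP6 library (red, left) and siNC library (dark blue, right). Points are libraries 1 to 3 from left to right, bars show the mean and SD, and each panel has its own y axis that does not start at 0. For 9 RNAs all siDUSP6 points lie below all siNC points, and for MT-RNR2 and MT-ND3 all lie above. Of all tested genes 14.9% lay apart with siDUSP6 lower and 10.2% with siDUSP6 higher.

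Of the 15 mitochondrial RNAs 5 fell in siDUSP6 libraries and 0 rose, all of them mRNAs: MT-ND1, MT-ND2, MT-ND4, MT-CO1 and MT-CO3. The test was limma on log2(TPM + 1) with Benjamini-Hochberg adjustment over 14602 genes, of which 1.49% were called lower and 2.37% higher, 3.86% in all. With any 1 library left out 3 members were called lower. Among the 126 other genes that averaged 1000 TPM or more, 8.73% were called lower and 11.9% higher. The changes were small, and mean TPM of the called genes changed by -4.68% to -7.93%. At an unadjusted p under 0.05, 9 of the 15 were lower and 2 higher, against 11.2% and 8.03% of all tested genes. Groups did not overlap for 9 members with siDUSP6 lower and for 2 with siDUSP6 higher, against 14.9% and 10.2% of all tested genes, 25.1% in all. The members are cut from shared precursors and all count in the same mitochondrial sum, so these are not counts of independent genes. The median log2 fold change was -0.061 over the 15 members, -0.0254 over all tested genes and -0.0126 over the 126 other abundant genes. Replicates of the mitochondrial RNAs lay close together, with a median standard error of the log2 fold change of 0.0138, against 0.0843 for all tested genes. Almost all tested genes had lower levels than these RNAs, and the standard errors of the 126 other abundant genes were not compared.

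Complex I, NADH dehydrogenase, takes 7 of its core subunits from mitochondrial DNA. Of their mRNAs 3 fell, MT-ND1, MT-ND2 and MT-ND4, and the other 4 did not pass the test. MT-ND1 (ENSG00000198888, chrM:3307-4262, plus strand), a membrane subunit beside the quinone site, stood at 4687, 4729 and 4690.3 TPM in siDUSP6 libraries, against 5089, 5150 and 5083 TPM in siNC libraries. Each siDUSP6 library lay below each siNC library, with -0.119 as the log2 fold change (SE 0.0101; limma adjusted p = 0.00196). It had the largest fall of the 15 and kept its call when any library was left out, but not without the variance trend (limma adjusted p = 0.163).

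MT-ND2 (ENSG00000198763, chrM:4470-5511, plus strand), a proton-pumping membrane subunit, stood at 3835, 3809 and 3861 TPM in siDUSP6 libraries, against 4124, 4092 and 4113 TPM in siNC libraries. Its log2 fold change was -0.0997 (SE 0.01, limma adjusted p = 0.00406). MT-ND4 (ENSG00000198886, chrM:10760-12137, plus strand), another proton-pumping subunit, stood at 4746, 4753 and 4724 TPM in siDUSP6 libraries, against 4983, 5023 and 5042 TPM in siNC libraries. Its log2 fold change was -0.0813 (SE 0.00944, limma adjusted p = 0.00698). Neither gene's groups overlapped, and both calls held when any library was left out. Both were lost without the filter on low genes, after quantile normalization and without the variance trend, with limma adjusted p of up to 0.646 for MT-ND2 and 0.37 for MT-ND4.

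MT-ND3 (ENSG00000198840, chrM:10059-10404, plus strand) encodes a small subunit whose loop moves between the active and resting states of complex I, and its mean was higher in siDUSP6. It stood at 13357, 13477 and 13612 TPM in siDUSP6 libraries, against 12864, 13227 and 13233 TPM in siNC libraries. All siDUSP6 libraries lay above all siNC libraries, though the change of the mean, 2.85%, did not pass the test (log2 fold change 0.0407, SE 0.0138, limma adjusted p = 0.176). The ratio of MT-ND3 to MT-ND1 was 2.85, 2.85 and 2.90 in siDUSP6 libraries, against 2.53, 2.57 and 2.60 in siNC libraries, a change of 11.7% in the mean ratio. MT-ND3 had the highest and MT-ND1 the lowest log2 fold change of the members, so this ratio restates those extremes.

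MT-ND4L (ENSG00000212907, chrM:10470-10766, plus strand), whose RNA is made as one molecule with MT-ND4, stood at 13778, 14116 and 14538 TPM in siDUSP6 libraries, against 14984, 14373 and 14717 TPM in siNC libraries. Here the groups overlapped, since siDUSP6 replicate 3 lay above siNC replicate 2 (log2 fold change -0.0549, limma adjusted p = 0.256). The ratio of MT-ND4L to MT-ND4 was 2.98 ± 0.0881 in siDUSP6 and 2.93 ± 0.0735 in siNC libraries (SD, n = 3 each), a difference smaller than the spread.

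MT-ND5 (ENSG00000198786, chrM:12337-14148, plus strand), the largest subunit encoded in mitochondrial DNA, stood at 2192, 2164 and 2249 TPM in siDUSP6 libraries, against 2249.2, 2296 and 2253 TPM in siNC libraries. The groups all but touched, since siDUSP6 replicate 3 stood at 2248.99 TPM, and it did not pass the test (log2 fold change -0.0417, limma adjusted p = 0.263). Of 17 alternatives it passed in 1, quantile normalization, with a log2 fold change of -0.0661 (limma adjusted p = 0.00707).

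MT-ND6 (ENSG00000198695, chrM:14149-14673, minus strand) is the 1 mRNA on the minus strand and in human cells carries little or no poly(A) tail. It stood at 2519, 2379 and 2634 TPM in siDUSP6 libraries, against 2646, 2663 and 2585 TPM in siNC libraries. It had the widest spread of the 15 in siDUSP6, with a coefficient of variation of 5.11%, against 1.57% in siNC, and the groups overlapped (log2 fold change -0.0689, SE 0.0357, limma adjusted p = 0.356). Its level was close to that of MT-CYB and above that of MT-ND5, its neighbours on the other strand. The kit is stranded, but the strand setting of the counting is not given in the sources used here, so reads of MT-ND6 and of RNA from the opposite strand cannot be told apart.

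Complex III takes 1 subunit, cytochrome b, from mitochondrial DNA. MT-CYB (ENSG00000198727, chrM:14747-15887, plus strand) stood at 2751, 2715 and 2736 TPM in siDUSP6 libraries, against 2796, 2762 and 2749 TPM in siNC libraries. The groups overlapped and the 95% interval of the log2 fold change ran from -0.0464 to 0.00975 (limma adjusted p = 0.462).

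Complex IV, cytochrome c oxidase, takes its 3 catalytic core subunits from mitochondrial DNA, and each was lower in each siDUSP6 library than in each siNC library. MT-CO1 (ENSG00000198804, chrM:5904-7445, plus strand), which holds the site of oxygen reduction, stood at 6974, 6980.0 and 6823 TPM in siDUSP6 libraries, against 7324, 7425 and 7286 TPM in siNC libraries. It passed the test (log2 fold change -0.0849, SE 0.0129, limma adjusted p = 0.0199). MT-CO3 (ENSG00000198938, chrM:9207-9990, plus strand), a structural core subunit, stood at 6595, 6492 and 6664 TPM in siDUSP6 libraries, against 6946, 6960 and 6816 TPM in siNC libraries, and passed narrowly (log2 fold change -0.0692, SE 0.0136, limma adjusted p = 0.0451). Neither call survived the removal of any single library, and over all alternatives the limma adjusted p reached 0.581 for MT-CO1 and 0.578 for MT-CO3.

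MT-CO2 (ENSG00000198712, chrM:7586-8269, plus strand), which takes electrons from cytochrome c, stood at 7740, 7884 and 7871 TPM in siDUSP6 libraries, against 8168, 8083 and 8069 TPM in siNC libraries. It fell short of the threshold (log2 fold change -0.0498, SE 0.0108, limma adjusted p = 0.0609). It passed when tested genes had to average 5 TPM (limma adjusted p = 0.0408) and when libraries were scaled to the sum of the other genes (limma adjusted p = 0.0421).

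Complex V takes its subunits a and A6L from the overlapping genes MT-ATP6 and MT-ATP8, whose reading frames share the bases in capitals above. MT-ATP8 (ENSG00000228253, chrM:8366-8572, plus strand) stood at 23608, 23440 and 24567 TPM in siDUSP6 libraries, against 25276, 25355 and 26519 TPM in siNC libraries. MT-ATP6 (ENSG00000198899, chrM:8527-9207, plus strand), the proton channel subunit, stood at 4238, 4273 and 4188 TPM in siDUSP6 libraries, against 4441, 4466 and 4340 TPM in siNC libraries. For both genes all siDUSP6 libraries lay below all siNC libraries, and neither passed (log2 fold change -0.107 and -0.061, limma adjusted p = 0.0685 and 0.0764). MT-ATP8 was called in 2 of 17 alternatives, among them when tested genes had to average 5 TPM (limma adjusted p = 0.045). It was not called with any 1 library left out, and without the variance trend the limma adjusted p was 0.274.

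Both subunits of complex V come from 1 RNA, yet their TPM differed by 5.64 ± 0.2 times in siDUSP6 and 5.83 ± 0.246 times in siNC libraries (SD, n = 3 each). In each group replicate 3 had the highest MT-ATP8 and the lowest MT-ATP6 of its group.

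The rRNAs form the cores of the small and large subunits of the mitochondrial ribosome and lie nearest to the start of plus-strand RNA synthesis. MT-RNR2 (ENSG00000210082, chrM:1671-3229, plus strand), the 16S rRNA, stood at 6520, 6499 and 6605 TPM in siDUSP6 libraries, against 6264, 6460 and 6377 TPM in siNC libraries. All siDUSP6 libraries lay above all siNC libraries, with a log2 fold change of 0.039, which did not pass the test (SE 0.0138, limma adjusted p = 0.192). MT-RNR1 (ENSG00000211459, chrM:648-1601, plus strand), the 12S rRNA, stood at 1594, 1590.2 and 1674 TPM in siDUSP6 libraries, against 1586, 1670 and 1622 TPM in siNC libraries, which overlapped (log2 fold change -0.00587, limma adjusted p = 0.937). The ratio of MT-RNR2 to MT-RNR1 was 4.04 ± 0.0833 in siDUSP6 and 3.92 ± 0.0417 in siNC libraries (SD, n = 3 each), and the groups overlapped. The rRNAs carry at most short tails, so in libraries made by poly(A) selection their TPM is not a measure of their abundance in the cell.

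**Figure D2:**
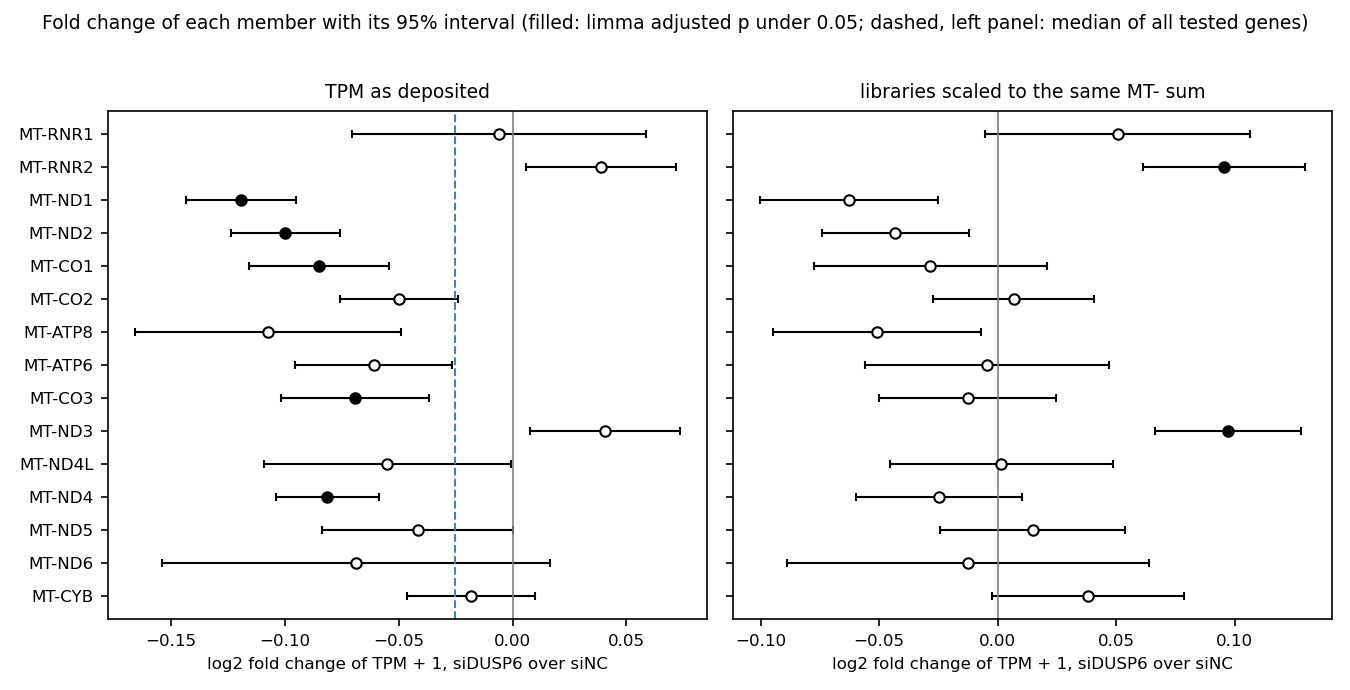
Log2 fold change of TPM + 1, siDUSP6 over siNC, of each mitochondrial RNA in genome order with its 95% interval from limma, from the TPM as deposited (left) and after each library was scaled to the same summed TPM of the MT- rows (right). Filled points passed an adjusted p of 0.05: MT-ND1, MT-ND2, MT-CO1, MT-CO3 and MT-ND4 on the left, MT-RNR2 and MT-ND3 on the right, and the dashed line marks the median of all tested genes at -0.0254.

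To ask which RNAs moved against the mitochondrial pool, each library was scaled to the same summed TPM of the MT- rows and the whole table was fitted again. MT-ND3 and MT-RNR2 then rose in siDUSP6 libraries, with log2 fold changes of 0.0972 (SE 0.013, limma adjusted p = 0.0105) and 0.0955 (SE 0.0144, limma adjusted p = 0.016), while 0 members fell. In this fit 3.72% of all tested genes were called higher and 0.445% lower, since the scaling moved the median of all tested genes to 0.025. At an unadjusted p under 0.05, 3 members were lower, namely MT-ND1, MT-ATP8 and MT-ND2, and 2 higher, against 4.84% and 13.5% of all tested genes in this fit. For higher members that is near the share of all tested genes. MT-ND1 was called lower when the pool was summed with each RNA weighted by its length (limma adjusted p = 0.0236). The calls of MT-ND3 and MT-RNR2 were lost without siDUSP6 replicate 1 or 2 and without the variance trend, and that of MT-RNR2 also without siNC replicate 1 or 3. Over all alternatives the adjusted p reached 0.274 for MT-ND3 and 0.285 for MT-RNR2, with log2 fold changes of 0.0866 to 0.105 and 0.0867 to 0.107.

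As a share of the MT- sum, MT-ND3 made up 12.7% ± 0.0664 in siDUSP6 and 11.9% ± 0.156 in siNC libraries, and MT-RNR2 6.17% ± 0.027 in siDUSP6 and 5.78% ± 0.0847 in siNC libraries (SD, n = 3 each). MT-ATP8 made up 22.5% ± 0.309 in siDUSP6 and 23.3% ± 0.515 in siNC libraries, and MT-ND1 4.44% ± 0.0649 in siDUSP6 and 4.64% ± 0.0472 in siNC libraries. Of the 15 shares 2 lay higher in all siDUSP6 than in all siNC libraries, 4 lay lower and 9 overlapped. The 4 lower ones were those of MT-ND1, MT-ND2, MT-ND4 and MT-ATP8. On this scale the like count over all tested genes was not taken. In TPM as deposited, groups did not overlap for 14.9% of tested genes with siDUSP6 lower and 10.2% with siDUSP6 higher. Shares sum to a fixed total, so a higher share of one RNA lowers the others.

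By class, the rRNAs held 7.72%, 7.68% and 7.71% of the MT- sum in siDUSP6 libraries, against 7.15%, 7.39% and 7.22% in siNC libraries, and the mRNAs held the rest. The groups did not overlap and the difference was 0.448 percentage points. MT-RNR2 alone differed by 0.395 points, so the class mostly followed it. MT-RNR1 differed by 0.0525 points, and its groups overlapped. After poly(A) selection these shares are not a measure of rRNA abundance in the cell. In TPM the mRNAs changed by -4.30%, without overlap of the groups, and the rRNAs by 2.10%, with overlap.

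By complex, the summed TPM of complex V changed by -6.73%, of complex IV by -4.55%, of complex I by -2.80% and of complex III by -1.26%, and the groups overlapped for complex III. Complex V held 26.5% ± 0.226 of the MT- sum in siDUSP6 and 27.3% ± 0.436 in siNC libraries. MT-ATP8 alone held 22.5% in siDUSP6 and 23.3% in siNC libraries, so complex V mostly followed it, and neither MT-ATP8 nor MT-ATP6 was called. Complex IV held 20.1% ± 0.229 in siDUSP6 and 20.3% ± 0.246 in siNC libraries, which overlapped. Complex III held 2.58% ± 0.0348 in siDUSP6 and 2.51% ± 0.0335 in siNC libraries, which also overlapped. Complex I held 43.1% ± 0.123 in siDUSP6 and 42.6% ± 0.167 in siNC libraries, without overlap (SD, n = 3 each).

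The direction for complex I rested on MT-ND3 and on how RNAs were weighted. Its share differed by 0.459 percentage points as deposited and by -0.0922 without MT-ND3. When each TPM was multiplied by the RNA's length, which gives weight by bases of RNA, complex I held 40.0% ± 0.127 in siDUSP6 and 40.2% ± 0.0975 in siNC libraries (SD, n = 3 each), again without overlap but with siDUSP6 lower. The rRNA share kept its direction by length, with 16.1% ± 0.0868 in siDUSP6 and 15.2% ± 0.195 in siNC libraries.

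By strand, the minus strand was represented by MT-ND6 alone, since its tRNA rows were at 0. It held 2.37% ± 0.0995 of the MT- sum in siDUSP6 and 2.39% ± 0.0485 in siNC libraries (SD, n = 3 each), which overlapped. The plus strand held the rest.

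**Figure D3:**
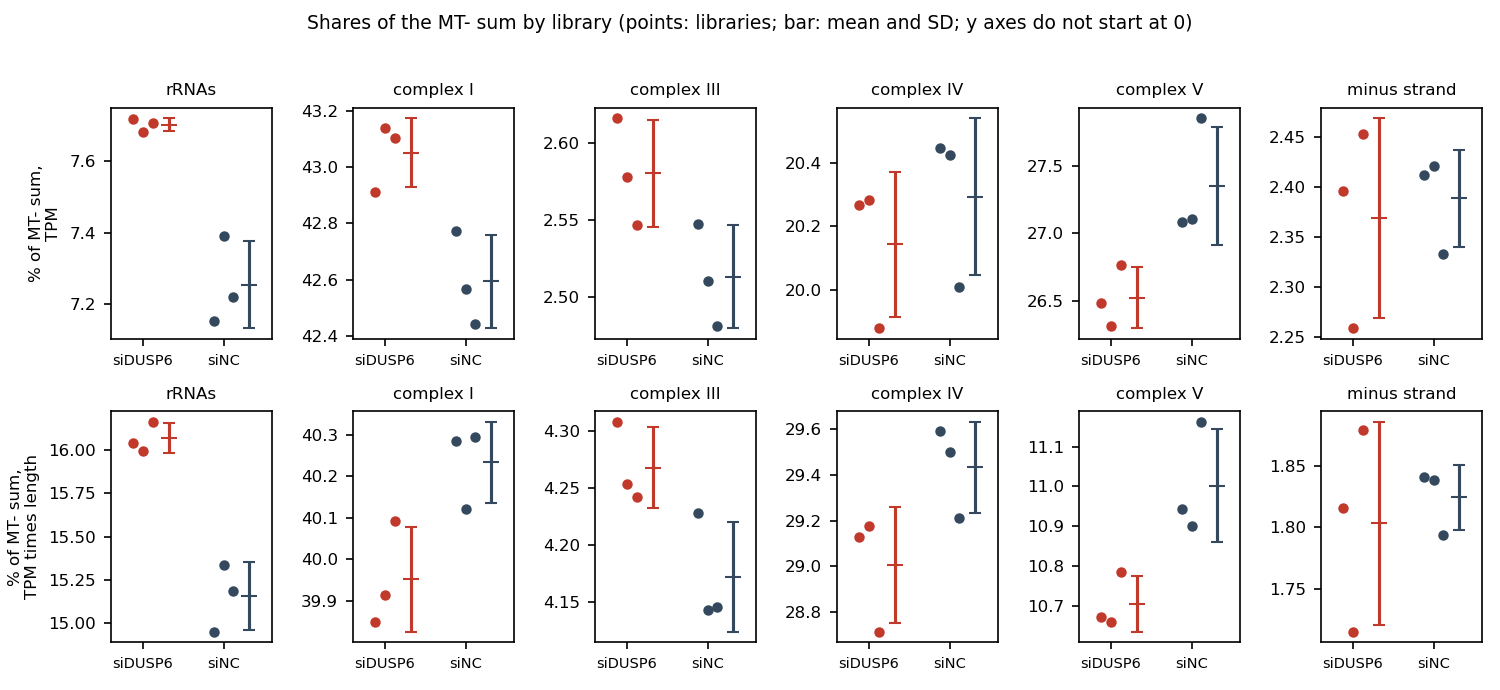
Percent of the MT- sum held by the rRNAs, by the mRNAs of complexes I, III, IV and V and by the minus strand in each library, with TPM as deposited (top) and TPM times annotated length (bottom). Points are libraries, siDUSP6 in red at the left and siNC in dark blue at the right, bars show the mean and SD, and y axes do not start at 0. The rRNA share is higher in all siDUSP6 libraries in both rows, while complex I is higher in siDUSP6 in the top row and lower in the bottom row.

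Levels differed between members along with their length. The 3 shortest mRNAs, MT-ATP8, MT-ND4L and MT-ND3 at 207, 297 and 346 bases, had the 3 highest TPM and held 48.6% ± 0.418 of the MT- sum in siDUSP6 and 48.6% ± 0.528 in siNC libraries (SD, n = 3 each). By length-weighted TPM they held 18.9% ± 0.26 in siDUSP6 and 18.8% ± 0.281 in siNC libraries. Across the 15 members the Pearson correlation of log10 TPM with log10 length was -0.671 and the Spearman correlation -0.489. These are members of 1 genome measured in the same libraries, and the values are a description. TPM already divides by length, and the length model of the deposited values is not given in the sources used here.

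The order of the levels was the same in both groups for the highest 7: MT-ATP8, MT-ND4L, MT-ND3, MT-CO2, MT-CO1, MT-CO3 and MT-RNR2. Within siDUSP6 the libraries of MT-CO3 and MT-RNR2 overlapped, as did those of MT-ND4 and MT-ND1, and all other neighbours in the order were apart. In siNC libraries all neighbours were apart, with MT-ND1 above MT-ND4. The lowest 4, MT-CYB, MT-ND6, MT-ND5 and MT-RNR1, kept their order in both groups, from 2734 ± 18.0 TPM for MT-CYB to 1619 ± 47.6 TPM for MT-RNR1 in siDUSP6 and from 2769 ± 24.2 to 1626 ± 41.8 TPM in siNC libraries.

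**Figure D4:**
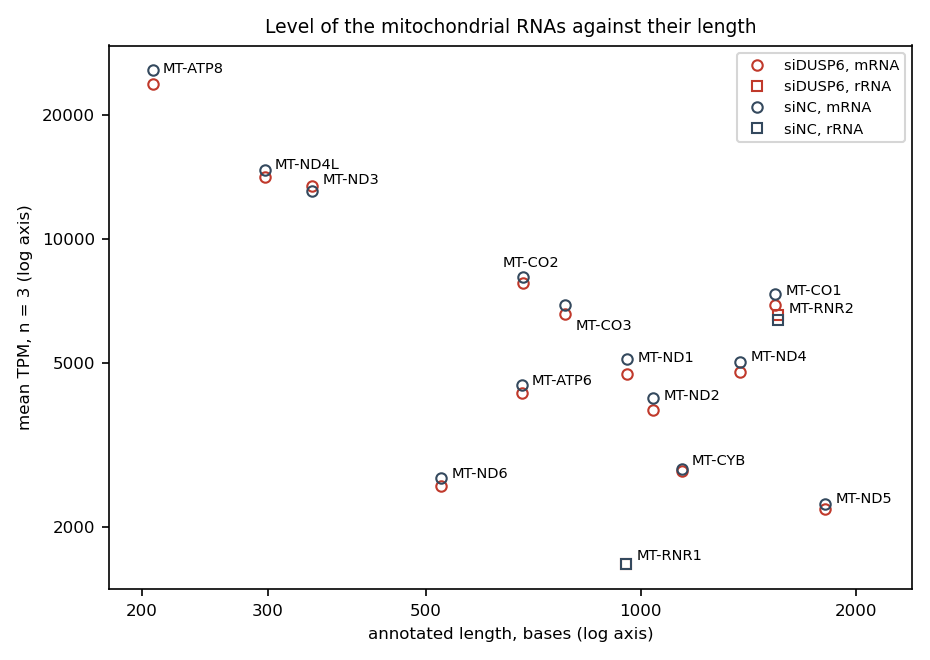
Mean TPM of the 13 mRNAs (circles) and 2 rRNAs (squares) against annotated length, both on log axes, in siDUSP6 (red) and siNC (dark blue) libraries. MT-ATP8, the shortest at 207 bases, is highest, and the points of the 2 groups lie close together for each RNA.

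The fold changes had weak correlations with length, GC content and level. Across the 15 members the Pearson correlation of the log2 fold change with length was 0.0992, with GC content -0.23 and with mean TPM -0.112. Along the genome the 13 mRNAs had a Pearson correlation of 0.552 and a Spearman correlation of 0.648 between fold change and start position, with MT-ND1 and MT-ND2 at the low end. With the 2 rRNAs, which lie first and were not lower, the values over 15 members were -0.0476 and 0.136. Neighbours on the plus strand are cut from the same precursor, so the points are not independent.

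Nuclear DNA holds many copies of mitochondrial genes, and reads could be shared between them and the members. Of 404 rows named as such copies 314 were at 0 in all libraries and 8 had a mean of at least 1 TPM. The highest, MTND2P28 on chromosome 1, is 98.4% identical to MT-ND2 over 1042 aligned positions and stood at 808, 783 and 797 TPM in siDUSP6 libraries, against 806, 878 and 821 TPM in siNC libraries. That was 20.8% of the level of MT-ND2 in siDUSP6 and 20.3% in siNC libraries. MTATP6P1, 98.5% identical to MT-ATP6, stood at 9.01% of its level in both groups, and MTND1P23 at 0.982% of MT-ND1 in siDUSP6 and 1.01% in siNC libraries. MTCO1P12, 98.6% identical to MT-CO1, averaged 23.6 TPM in siDUSP6 and 24.4 TPM in siNC libraries. None of the 8 copies passed limma's test, and 0 had an unadjusted p under 0.05. With these 4 copies of chromosome 1 added to their members, a setting chosen after seeing the data, 5 members were called lower and 0 higher.

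The nuclear genes that make and handle mitochondrial RNA and DNA showed no called change. Of 58 listed genes 57 were measured, all but PPARGC1A, and limma called 0 higher and 0 lower. At an unadjusted p under 0.05, 8 were lower and 1 higher, against 11.2% and 8.03% of all tested genes. Their median log2 fold change was -0.0737, against -0.0254 for all tested genes. Groups did not overlap for 11 with siDUSP6 lower and for 1 with siDUSP6 higher, against 14.9% and 10.2% of all tested genes. Without the variance trend 1 gene, DNA2, was called lower (limma adjusted p = 0.0355).

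In transcription, where POLRMT is the RNA polymerase and TFAM the packaging and initiation factor, the 2 smallest p-values were those of MTERF4 and MTERF3, factors of the mitochondrial terminator family. MTERF4 stood at 19.9, 19.5 and 18.2 TPM in siDUSP6 libraries, against 21.4, 21.6 and 20.4 TPM in siNC libraries (limma adjusted p = 0.239). MTERF3 averaged 29.3 ± 0.252 TPM in siDUSP6 and 32.4 ± 2.95 TPM in siNC libraries (SD, n = 3 each, limma adjusted p = 0.323). The role's 10 genes had a median log2 fold change of -0.0614.

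The 18 processing and modification genes had a median of -0.102. PUS1, a pseudouridine synthase, stood at 15.7, 16.9 and 14.8 TPM in siDUSP6 libraries, against 18.8, 18.4 and 19.3 TPM in siNC libraries (log2 fold change -0.242, limma adjusted p = 0.082). MRM2, a methyltransferase of the 16S rRNA, averaged 26.4 ± 0.99 TPM in siDUSP6 and 30.7 ± 1.86 TPM in siNC libraries (SD, n = 3 each, limma adjusted p = 0.102). For both genes all siDUSP6 libraries lay below all siNC libraries.

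Among the 10 genes that bind and stabilise mitochondrial mRNA the median was -0.0359. LRPPRC, which with SLIRP keeps mRNAs stable and polyadenylated, averaged 68.3 ± 2.59 TPM in siDUSP6 and 72.2 ± 1.29 TPM in siNC libraries (SD, n = 3 each, limma adjusted p = 0.296). GRSF1, a factor of mitochondrial RNA granules, averaged 81.1 ± 1.89 TPM in siDUSP6 and 85.0 ± 2.88 TPM in siNC libraries (limma adjusted p = 0.374).

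The 6 decay genes had a median of -0.00844. PNPT1, the polynucleotide phosphorylase that degrades mitochondrial RNA and is known as an interferon-induced gene, stood at 86.5, 76.0 and 75.0 TPM in siDUSP6 libraries, against 63.8, 69.0 and 61.4 TPM in siNC libraries. All siDUSP6 libraries lay above all siNC libraries, and the log2 fold change of 0.285 did not pass (SE 0.0674, limma adjusted p = 0.0754). PDE12, which removes poly(A) tails, averaged 10.6 ± 0.348 TPM in siDUSP6 and 11.7 ± 0.5 TPM in siNC libraries (SD, n = 3 each, limma adjusted p = 0.292).

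The 8 DNA replication genes had a median of -0.0496. DNA2, a nuclease and helicase of nuclear and mitochondrial DNA, stood at 4.74, 4.67 and 4.65 TPM in siDUSP6 libraries, against 6.08, 5.94 and 6.13 TPM in siNC libraries (log2 fold change -0.31, limma adjusted p = 0.0635). POLG, the mitochondrial DNA polymerase, averaged 30.2 ± 1.25 TPM in siDUSP6 and 28.2 ± 1.40 TPM in siNC libraries (SD, n = 3 each, limma adjusted p = 0.404).

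The 5 measured nuclear regulators of mitochondrial genes had a median of -0.122. GABPA, the DNA-binding subunit of a nuclear respiratory factor, averaged 15.7 ± 0.64 TPM in siDUSP6 and 17.2 ± 0.272 TPM in siNC libraries (SD, n = 3 each, limma adjusted p = 0.252). PPRC1, a coactivator of the PGC-1 family, averaged 16.0 ± 0.467 TPM in siDUSP6 and 17.6 ± 0.974 TPM in siNC libraries (limma adjusted p = 0.303).

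**Figure D5:**
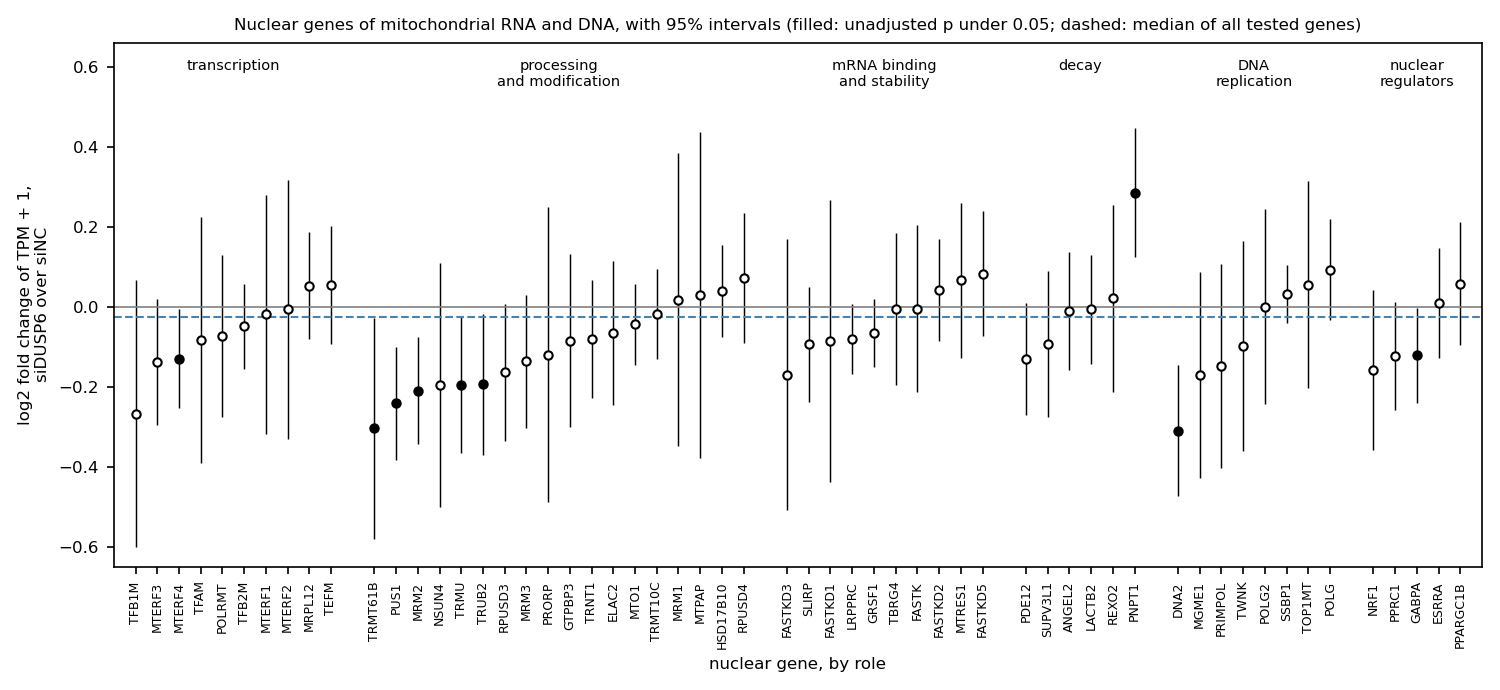
Log2 fold change of TPM + 1, siDUSP6 over siNC, with 95% intervals from limma, of 57 nuclear genes grouped by role and ordered by value within each role. Filled points have an unadjusted p under 0.05, none passed after adjustment over all genes, and the dashed line marks the median of all tested genes at -0.0254. PNPT1 is the 1 filled point above 0.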

How the data were processed

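Libraries were prepared from total RNA of THP-1-derived macrophages with a stranded poly(A) mRNA kit, per the labels' protocols. The authors deposited gene-level TPM of the 6 libraries in a single table, to 2 decimals, and each column summed to 1000000 within rounding. Per the submitters' processing notes fastp, HISAT2 and StringTie were used with GRCh38, without versions. Which program wrote the TPM, its strand setting and its annotation release are not stated there. TPM keep no depth, so no counting interval is given.

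After 21 rows without a gene ID were left out, 63241 rows remained. Classes, strands, coordinates, lengths and sequences came from GENCODE release 29, which held 58228 of the IDs. Groups came from the sample titles.

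The model, in limma 3.58.1 under R 4.3.3, had log2(TPM + 1) as response, group as its term and a variance trend. It took genes averaging 1 TPM or more, with Benjamini-Hochberg adjustment over all of them. Calls were made at an adjusted p of 0.05, two-sided. Shares, ratios, figures and alignments of copies used Python 3.11.15, pandas 2.3.3, scipy 1.17.1, Biopython 1.88 and matplotlib 3.10.9. An exact permutation test with 3 against 3 libraries cannot go below p = 0.1, so sums and shares are given with SDs and no p. The fit and the shares were run on simulated data with planted changes, to check the code. The planted changes were larger than those of the members, and the spreads for the fit came from the fit itself. Calls at changes of a few percent and the variance trend were therefore not tested there.

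All MT- mRNAs and rRNAs are named, and in each role of the nuclear genes the 2 with the smallest p. The members and lists were chosen with earlier results of these data known. Alternatives were other pseudocounts, filters, scalings and variance models, the replicate block, length weighting, and each library left out in turn.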

Additional observations from a re-analysis of the deposited data

How the results depend on the processing

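Depth is unknown, and the mitochondrial changes are of a few percent, so calls depend on the estimate of the spread. Against 5 members called lower, 4 were called with a pseudocount of 5 and after median-of-ratios scaling, 7 when genes had to average 5 TPM, 6 when scaled to the sum of the other genes, and 1 without the filter, where more genes are tested. The count was 2 after quantile normalization, which gives the same value to any gene at the same rank in each library, 0 without the variance trend and 3 without any 1 library. With the replicate block it was 2, MT-ND1 and MT-ATP8 (limma adjusted p = 0.0349 and 0.0304), while the calls of MT-ND2, MT-ND4, MT-CO1 and MT-CO3 were lost (0.0568, 0.082, 0.0703 and 0.164), and 121 genes were called in all, against 564. Same-numbered libraries deviated from their group means with correlations of 0.0252, -0.0365 and 0.048 over genes. Not every library correlated best with the one of its own number. The labels do not say whether a number marks a shared culture or day, and such correlations cannot decide it. All calls numbered 360 without the filter, 124 without the variance trend and 222 to 266 with 1 library left out. Among the nuclear genes of mitochondrial RNA and DNA 1 was called without the variance trend. Scaled to the MT- sum, 2 members were called higher, against 0 without the variance trend, 1 with the replicate block, where that of MT-RNR2 was lost (limma adjusted p = 0.0677), and 0 to 2 with 1 library left out. With length weighting 1 was called lower there, against 0. No sign of a called member turned under any alternative run.

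The log2 ratio of the sums was -0.0311 after median-of-ratios scaling and -0.0665 to -0.0508 with 1 library left out. Multiplying by length gave share differences of 0.91 points for rRNAs, -0.281 for complex I, -0.428 for complex IV and -0.297 for complex V. Without MT-ATP8 and MT-ND4L these were 0.556, 0.12, -0.633 and -0.0983. Without MT-ND3, a setting chosen after seeing the data, as was length-weighted scaling, they were 0.591 for rRNAs, -0.0922 for complex I, 0.104 for complex III, 0.0464 for complex IV, whose direction turned, and -0.649 for complex V, and without the rRNAs 0.72 for complex I. Each such setting changes what is summed. With 1 library left out the differences ran from 0.397 to 0.516 for rRNAs, 0.383 to 0.548 for complex I, 0.0494 to 0.0847 for complex III, -0.293 to -0.0185 for complex IV, -0.957 to -0.572 for complex V and -0.061 to 0.0357 for the minus strand.

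Members near 0 changed sign, and the cause was not tested. After median-of-ratios scaling MT-CYB stood at 0.00694 and MT-RNR1 at 0.0194 (log2 fold change). With 1 library left out MT-RNR1 ran from -0.0301 to 0.0134. Relative to the MT- sum, MT-ATP6 stood at 0.00244 with the pool of mRNAs, MT-ND4L at -0.00379 with the length-weighted pool, and with 1 library left out MT-ND6 ran from -0.0377 to 0.0215, MT-CO2 from -0.00265 to 0.015, MT-ATP6 from -0.0211 to 0.0132 and MT-ND4L from -0.013 to 0.0188.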

Other observations

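Ratios of RNAs that lie beside each other were also taken in each library. MT-ND6 over MT-ND5, which lie end to end on opposite strands, was 1.15, 1.10 and 1.17 in siDUSP6 libraries, against 1.18, 1.16 and 1.15 in siNC libraries, which overlapped. MT-CO3 over MT-ATP6, which lie next to each other with no tRNA between them, was 1.56, 1.52 and 1.59 in siDUSP6 libraries, against 1.56, 1.56 and 1.57 in siNC libraries, which also overlapped. MT-ND3 over MT-ND4L, neighbours with the tRNA MT-TR between them, was 0.969, 0.955 and 0.936 in siDUSP6 libraries, against 0.859, 0.92 and 0.899 in siNC libraries, with all siDUSP6 libraries higher. MT-RNR2 over MT-ND1, separated by the tRNA MT-TL1, was 1.39, 1.37 and 1.41 in siDUSP6 libraries, against 1.23, 1.25 and 1.25 in siNC libraries, a change of 11.6% in the mean ratio. MT-ND1 had the lowest log2 fold change of the members, and only MT-ND3 stood above MT-RNR2, so this ratio again restates extremes. After poly(A) selection the TPM of MT-RNR2 is not a measure of its abundance. No like count over pairs of other genes was taken.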
